A study of Homo sapiens with 20 samples.

Results

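The response of 2 colorectal cancer cell lines to POLR1D silencing was compared gene by gene, over all 20 of the 20 RNA-seq libraries of the study. HT29 and SW480, both epithelial lines from colorectal tumors, were transfected with a negative control siRNA (SCR) or with an siRNA against POLR1D (siPOLR1D2 or siPOLR1D3). HT29 gave 4 SCR and 4 siPOLR1D libraries (2 per siRNA), and SW480 gave 6 SCR and 6 siPOLR1D libraries (3 per siRNA). Per the study's methods, HT29 carries a focal amplification around POLR1D and SW480 a gain of the whole of chromosome 13, so that the controls of both lines already hold extra copies of the gene, and each line stands for 1 tumor only. Neither the labels nor the methods tie the libraries to separate experiments, and p-values therefore measure the spread between libraries, which may be technical. Values are normalised read counts, scaled within each line, and the total of estimated reads per library lay between 13500000 and 27600000. After rows sharing a gene name were summed, 16203 of 36346 gene names had a value of 10 or more in at least 4 libraries and were tested. A change is the mean of log2(value + 1) in siPOLR1D minus that in SCR within a line, which understates the change of low genes. A difference is the SW480 change minus the HT29 change, and the average is the mean of both changes.

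POLR1D encodes a subunit shared by RNA polymerases I and III, which transcribe ribosomal RNA, transfer RNAs and other small RNAs. Several programs that respond to the supply of amino acids and to protein folding are described below. In the integrated stress response, kinases that sense amino acid shortage or unfolded protein phosphorylate the initiation factor eIF2, which favors translation of the transcription factor ATF4 and so raises genes for amino acid synthesis, amino acid import and tRNA charging. The unfolded protein response raises chaperones of the endoplasmic reticulum through ATF6 and XBP1, and MAPK and NF-kappaB signaling raise growth factor ligands, phosphatases and cytokines.

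The targeted transcript was lower in all silenced libraries of both lines. POLR1D (chr13:27620742-27744237, plus strand, GRCh38) had normalised read counts of 6036, 4711, 4433 and 5010 in HT29 SCR and of 3414, 3492, 2858 and 2550 in HT29 siPOLR1D. In SW480 it ranged from 1829 to 2599 (median 2030) in SCR and from 843.4 to 1336 (median 976.1) in siPOLR1D, and groups were separate in both lines. The log2 change was -0.72 ± 0.15 (SE) in HT29 and -1.04 ± 0.12 in SW480, and an exact two-sided permutation test gave p = 0.0286 and p = 0.00216, each the smallest that these group sizes allow. The changes of both lines differed by -0.32 ± 0.19 (limma, adjusted p = 0.701).

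Some libraries stood apart within a group. In HT29, SCR 1 had a score of -105 on the first principal component (34.9% of the variance), and the remaining 7 libraries lay between -21.2 and 24.5. SW480 libraries divided on their own first component (38.8%), with SCR 1 to 3 and siPOLR1D2 1 and 2 at -78.1 to -17.8 and SCR 4 to 6 and the other 4 silenced libraries at 23.3 to 59.1, and no label gives this division. For the main lists, values without these libraries are given below. Epithelial markers matched the labels, with 7 or 8 of 10 at a mean of 10 or more in each group and summed values of 139178 to 270013 per library, although the colonic factor CDX1 was at 0 and CDX2 at 0.465 or less in HT29 SCR. The summed fibroblast markers reached 18.3 to 84.3 in HT29 and 217 to 879 in SW480, and those of the endothelial markers reached 2.23 to 14.3 and 16.5 to 143, with KDR at 0 in all HT29 libraries. The 6 immune markers summed to 22293 to 32509 in HT29, nearly all from the lysozyme gene LYZ, and to 121 to 852 in SW480, with PTPRC at 21.2 or less and CD3E at 4.68 or less in all libraries. The part of these libraries and markers in the results was not tested beyond the values given.

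Most genes called in the average moved the same way in both lines, and few were called for a difference between the lines. In the average of both lines, 399 genes rose (2.46% of the 16203 tested) and 677 fell (4.18%) at an adjusted p under 0.05 by limma. Of these 1076 genes, 1059 (98.4%) had changes of the same sign in both lines, a share that selection on the average favors. By the interaction of line and transfection, 4 genes had a difference above 0 (0.0247%) and 2 a difference below 0 (0.0123%). On simulated data this test recovered 30.6% of the genes given the smaller difference and 63.2% of those given the larger. Few calls therefore do not show that the lines respond alike. At an unadjusted p under 0.05 the interaction gave 655 genes above 0 (4.04%) and 687 below 0 (4.24%). Calls within a single line were uneven: the HT29 change was called for 5 genes upward (0.0309%) and 6 downward (0.037%), whereas the SW480 change was called for 472 upward (2.91%) and 731 downward (4.51%). The 1076 average calls were 370 without HT29 SCR 1 and 2, 153 with siPOLR1D2 as the only silencing siRNA and 68 with the first side of the SW480 division alone. The median SE of a change was 0.265 in HT29 and 0.217 in SW480, and that of a difference was 0.343.

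When each line was read at an unadjusted p under 0.05, HT29 had 763 genes higher (4.71%) and 906 lower (5.59%), and SW480 had 1729 higher (10.7%) and 1935 lower (11.9%). Higher in both lines were 211 genes (1.3%) and lower in both lines 372 (2.3%), whereas 20 genes (0.123%) were higher in HT29 and lower in SW480 and 17 (0.105%) the reverse. The 372 genes lower in both lines had median log2 changes of -0.54 in HT29 and -0.56 in SW480, and the 211 higher in both had 0.68 and 0.64. Of these 583 genes, 15 had a difference with an unadjusted p under 0.05. Across all genes tested, 62.1% had the same sign in both lines, and the changes had a Pearson r of 0.277 and a Spearman rho of 0.307, given as a description since genes are not independent replicates. The balance of directions depended on the scaling: with upper quartile scaling the average gave 637 genes higher and 471 lower, and with quantile normalization 518 and 585, while the genes moving the same way in both lines split into 363 higher and 252 lower and into 288 and 311.

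**Figure D1:**
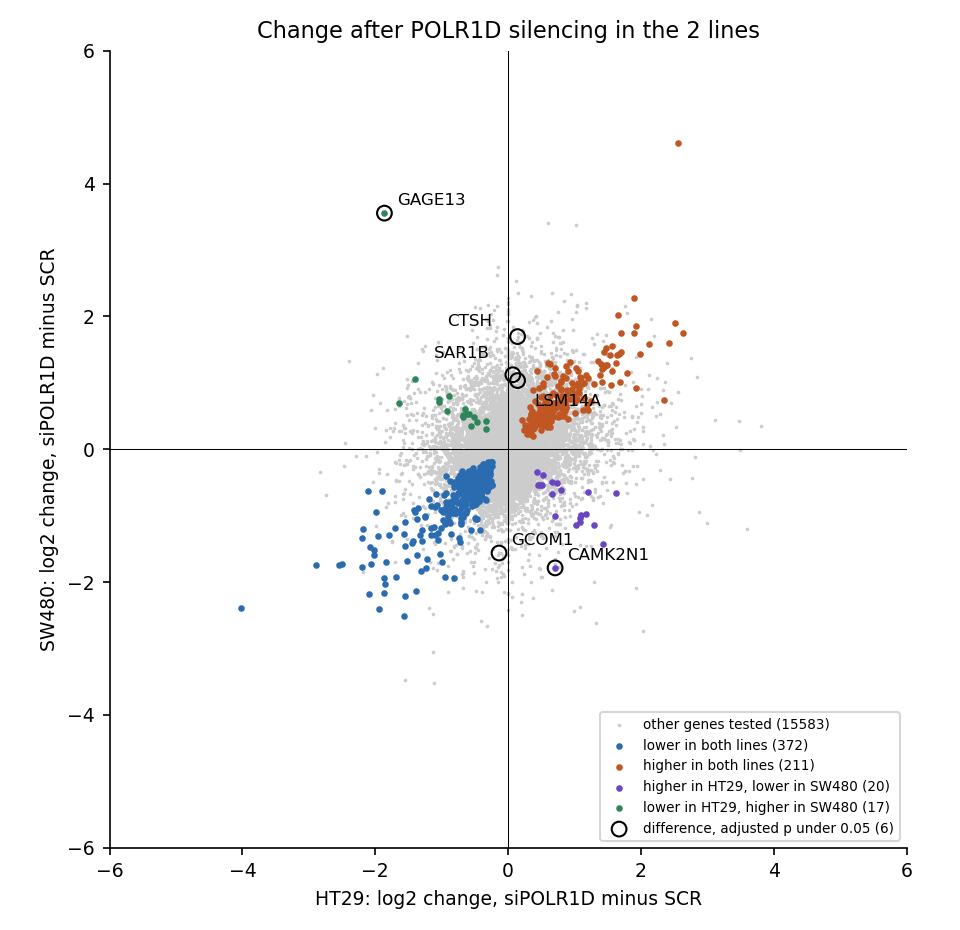
Log2 change after POLR1D silencing in HT29 (horizontal) and in SW480 (vertical) for the genes tested, 1 point per gene. The 372 blue and 211 orange genes were lower or higher in both lines at an unadjusted p under 0.05, the 20 violet and 17 green genes moved in opposite directions, and the 6 circled genes differed between the lines at an adjusted p under 0.05.

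Targets of the integrated stress response fell in the average of both lines. Of 40 targets of ATF4 and CHOP that were tested, 38 were lower in HT29 and 39 in SW480, with median log2 changes of -1.10 and -0.96, against 0.00 and 0.02 over all genes tested. This list, as the others below, was chosen with earlier results of these data known, so its counts are a description only. In the average of both lines 27 of the 40 fell and none rose, and 24 were among the genes lower in each line. The median difference was 0.12, with 1 gene above 0 and 3 below at an unadjusted p under 0.05. ATF4 sites (C/EBP-ATF response elements) stood in the promoters of several members, and those of ASNS, ATF3, CHAC1 and HERPUD1 are printed because this motif recurs in the list. That of AARS, from the list of cytosolic tRNA synthetases, is printed beside them. The member FGF21 also held a match and is not printed. Its changes were -0.82 and -0.71, and it was not among the genes lower in each line. In the windows below, from RefSeq promoters on GRCh38.p14 written 5′ to 3′ along the gene, capitals mark the 9-base match to TGATGNAAN on either strand.
ASNS: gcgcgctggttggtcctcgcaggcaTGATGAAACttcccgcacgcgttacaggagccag
ATF3: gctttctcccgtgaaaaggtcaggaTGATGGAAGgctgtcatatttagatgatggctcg
CHAC1: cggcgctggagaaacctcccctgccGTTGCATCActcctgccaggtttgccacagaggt
HERPUD1: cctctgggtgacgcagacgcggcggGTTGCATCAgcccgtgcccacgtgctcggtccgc
AARS: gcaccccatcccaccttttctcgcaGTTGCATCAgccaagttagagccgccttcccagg

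These windows lie at chr7:97872443-97872501 (minus strand) for ASNS, chr1:212565191-212565249 (plus) for ATF3, chr15:40953236-40953294 (plus) for CHAC1, chr16:56931940-56931998 (plus) for HERPUD1 and chr16:70289661-70289719 (minus) for AARS. The match lay on the gene's own strand in ASNS and ATF3 and on the other strand in CHAC1, HERPUD1 and AARS. In windows from 250 bases before to 50 after the start, 11 of the 33 list members with a promoter sequence held the motif (33.3%), against 339 of 11670 protein-coding genes tested (2.9%). Of the genes lower in both lines, 28 of 309 held it (9.06%). Among genes with a difference below 0 at an unadjusted p under 0.05 the share was 3.02%, near that of all promoters. A match is a description of letters, not of binding.

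ATF4 itself, the transcription factor of this response, fell in the average. ATF4 (chr22:39519695-39522685, plus strand) had 5698, 4757, 3308 and 4553 normalised reads in HT29 SCR and 2560, 3002, 2867 and 2620 in HT29 siPOLR1D. In SW480 the values ran from 5961 to 8030 (median 6464) in SCR and from 2839 to 5347 (median 3818) in siPOLR1D, and neither line's groups overlapped. Changes were -0.71 ± 0.17 and -0.81 ± 0.14 (average, limma adjusted p = 0.000951). ASNS, which makes asparagine, was at 8177, 5881, 1691 and 3037 in HT29 SCR and at 949.5, 1683, 2050 and 2414 in siPOLR1D, and in SW480 it went from 6695 to 18824 down to 2066 to 3761. SW480 groups were separate, whereas HT29 SCR 3 lay within the range of the silenced HT29 libraries. The average change of ASNS passed the test (limma adjusted p = 0.0022), with -1.24 in HT29 and -1.79 in SW480.

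Other members had similar or unequal sizes in the lines. GPT2, an alanine transaminase, had changes of -0.89 and -0.96 (average, limma adjusted p = 0.00102), and PHGDH, which opens serine synthesis, -0.56 and -1.22 (0.00305). The stress factor ATF3 had -2.89 and -1.74 (adjusted p = 0.00621). SLC1A4, a transporter of neutral amino acids, was among the 11 genes called in the HT29 contrast, with 1774, 729.5, 319.2 and 449.4 in HT29 SCR and 108.6, 187.7, 193 and 187.2 in siPOLR1D. In SW480 it ranged from 884.4 to 1694 in SCR and from 470.4 to 704 in siPOLR1D, and groups of both lines were separate. Its changes, -1.99 ± 0.35 and -0.95 ± 0.29, gave a difference of 1.04 with an unadjusted p of 0.032. ATF5, a relative of ATF4, went against the list with 0.90 in HT29 and -0.49 in SW480, an unadjusted p of 0.0161 for the difference.

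The size of the HT29 change in this list depended on SCR 1 and 2, the HT29 controls of lowest depth (14200000 and 16100000 estimated reads, against 21000000 and 20300000 in SCR 3 and 4). Relative to the mean of the HT29 controls, the list stood at 0.90, 0.55, -1.06 and -0.38 in SCR 1 to 4 and between -1.25 and -1.05 in all 4 silenced libraries, so that SCR 3 was within their range. In SW480 the controls ran from -0.81 to 0.48 (median 0.10) and the silenced libraries from -1.22 to -0.47 (median -1.07). Without HT29 SCR 1 the HT29 median was -0.831. Without SCR 1 and SCR 2 it was -0.422, with 32 of 40 members still lower, and the median difference became -0.513. The HT29 changes were then -0.43 for ASNS, -0.17 for PHGDH, -0.47 for GPT2, -1.52 for ATF3 and -1.20 for SLC1A4, and -0.49 for ATF4. On the first side of the SW480 division the SW480 median was -0.641 and on the second -1.17.

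Enzymes that load amino acids onto transfer RNAs fell together with the ATF4 list where they act in the cytosol. Of 20 cytosolic synthetases, 14 were lower in HT29 and 17 in SW480 (medians -0.42 and -0.53), and 13 fell in the average. GARS, which charges glycine, had 36164, 32491, 17074 and 24370 in HT29 SCR and 14482, 15557, 15198 and 15295 in siPOLR1D, and 35788 to 57366 against 18956 to 29829 in SW480, with no overlap in either line. Its changes were -0.81 and -0.96 (average, limma adjusted p = 0.000858), and those of CARS, which charges cysteine, -0.78 and -0.96 (0.000947). YARS and EPRS, which charge tyrosine and both glutamate and proline, had -0.53 and -0.71 (0.00143) and -0.51 and -0.79 (0.00429). RARS, the arginine enzyme, was at 0.02 in HT29 and -0.47 in SW480, a difference of -0.49 with an unadjusted p of 0.00176. Of 17 mitochondrial synthetases none fell and 2 rose in the average, SARS2 (0.21 and 0.67) and CARS2, and their medians were 0.04 and -0.03. Without HT29 SCR 1 the HT29 median of the cytosolic enzymes was -0.297, and without SCR 1 and 2 it was -0.126, with 10 of the 20 then showing a difference below 0 at an unadjusted p under 0.05. The HT29 change of GARS was -0.43 there, that of CARS -0.38, and those of YARS and EPRS -0.25.

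AREG and EREG, secreted ligands of the EGF receptor, fell in the average as well. Amphiregulin, AREG, had 21628, 11089, 3155 and 4486 in HT29 SCR and 3338, 2236, 2341 and 2482 in siPOLR1D, and in SW480 from 1965 to 15474 (median 3891) and from 321.1 to 1413 (median 862.5). SW480 groups were separate and HT29 groups overlapped through SCR 3. Changes were -1.57 and -2.52 (average, limma adjusted p = 0.00375), and those of epiregulin, EREG, -1.39 and -2.13 (0.00333). VEGFA, the vascular growth factor, was at 8407, 6777, 1372 and 2828 in HT29 SCR and at 1280, 1325, 1747 and 1635 in siPOLR1D. In SW480 it ranged from 751.4 to 2366 in SCR and from 515.3 to 905 in siPOLR1D. Its groups overlapped through SCR 3 in HT29 and through SCR 1 in SW480. The changes of VEGFA were -1.38 and -1.05 (average, limma adjusted p = 0.0102). Without HT29 SCR 1 and 2 the HT29 changes were -0.55 for AREG, -0.74 for EREG and -0.41 for VEGFA, and the average change of VEGFA was -0.73 and no longer passed the test. Of the 15 EGF family ligands and receptors tested, 3 fell in the average, and with all libraries the list's medians were -0.06 and -0.14. The SW480 median depended on the libraries. It was -0.0732 on the first side of the SW480 division, with 7 members lower and 7 higher. On the second side it was -0.935, with 13 of 15 lower.

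Further lists fell in common, in lesser numbers. Of 30 antioxidant targets of NRF2, 27 were lower in HT29 and 25 in SW480 (medians -0.51 and -0.25), and 8 fell in the average, among them the cystine importer SLC7A11 with -1.53 and -1.69 (limma adjusted p = 0.00533), GPX8 with -1.57 and -1.27 (0.00102) and the thioredoxin reductase TXNRD1 with -0.65 in each line (0.00891). The HT29 median of this list was -0.251 without SCR 1 and -0.0581 without SCR 1 and 2, where SLC7A11 was at -0.92 and TXNRD1 at -0.23. Of 34 autophagy genes, 27 and 30 were lower (medians -0.24 and -0.23) and 7 fell in the average. These included the cargo receptor CALCOCO2 (-0.68 and -0.83, adjusted p = 0.00411) and VMP1, which acts in autophagosome formation (-0.34 and -0.75, 0.00513). Without HT29 SCR 1 and 2 the HT29 autophagy median was -0.102, with 13 of 34 higher, and 2 fell in the average. Outside the lists, the lowest average p-values among shared falls belonged to PLEKHA8, a lipid transfer protein (-0.62 and -0.91), and FYTTD1, an mRNA export factor (-0.44 and -0.68), each with an adjusted p of 0.000234.

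Shared increases included several regulators. TNRC6A, a scaffold of the microRNA silencing complex, had 1246, 1505, 2149 and 1506 in HT29 SCR and 1997, 2371, 2819 and 3067 in siPOLR1D, and in SW480 1196 to 1904 (median 1644) against 3169 to 4601 (median 3299). Groups were separate in SW480 and overlapped in HT29 through SCR 3, and its changes were 0.69 ± 0.17 and 1.13 ± 0.14 (average, limma adjusted p = 0.000234). HIPK3, a kinase, was at 2509, 2316, 2266 and 2434 in HT29 SCR and at 2710, 3432, 3476 and 3319 in siPOLR1D, and at 802.7 to 1096 against 1442 to 2474 in SW480. Neither line's groups overlapped, and changes were 0.44 and 1.17 (adjusted p = 0.000251). NOTCH1, a receptor that sets cell fate in the intestinal epithelium, had 0.60 and 1.30 (adjusted p = 0.00102). BCL2L11, which promotes apoptosis, had 0.53 and 0.96 (0.00323), and the RNA helicase DDX6 0.50 and 0.40 (0.00301).

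Heat shock chaperones of the cytosol and mitochondria were mostly higher after silencing. Of 26 tested, 21 were higher in HT29 and 20 in SW480 (medians 0.28 and 0.38), and 5 rose in the average, including HSPA8 (0.81 and 0.80, limma adjusted p = 0.0251) and HSPA1B (0.63 and 1.14, 0.0204). The HT29 median was 0.0798 without SCR 1 and 2, where HSPA8 was at 0.32 in HT29 and none of the 26 was called. HSPA1B has a near-identical copy, HSPA1A, so its value is uncertain. Of 21 Wnt targets and intestinal stem cell genes, 16 and 17 were higher (medians 0.40 and 0.50) and 7 rose, among them ASCL2, a stem cell factor, with 1.41 and 1.21 (adjusted p = 0.0187), PROX1 with 1.93 and 0.92 (0.00249) and SP5 with 2.34 and 0.74 (0.00249). SP5 had an unadjusted p of 0.00671 for the difference. In SW480 the median of the Wnt list was 0.181 with siPOLR1D2 alone and 0.751 with siPOLR1D3 alone, and 0.0515 (12 of 20 higher) and 0.635 on the first and second side of the SW480 division. Of 30 genes of mature colonocytes, 21 and 24 were higher (medians 0.47 and 0.33) and 8 rose, including the mucin MUC12 (2.42 and 1.61, 0.0134) and the dipeptidase DPEP1 (1.04 and 1.01, 0.0168). MUC12 was at 1.26 in HT29 without SCR 1 and 2. CDX2, a factor of intestinal identity, was called in the HT29 contrast at very low values, 0.4647, 0, 0 and 0.2805 in SCR against 7.278, 4.758, 7.906 and 3.964 in siPOLR1D. In SW480 it ranged from 45.52 to 168.9 in SCR and from 46.5 to 224.5 in siPOLR1D, and its change was 0.34 ± 0.39.

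The counts called in the average for the shared lists above stand against 2.46% of all genes tested that rose and 4.18% that fell. How many members of each shared list were called in the average depended on which silenced libraries entered, by fits that hold fewer libraries. With siPOLR1D2 alone, 5 genes of the integrated stress response, 2 cytosolic synthetases, 2 NRF2 targets and 2 autophagy genes fell, and no heat shock, Wnt or colonocyte gene rose. With siPOLR1D3 alone, the falls numbered 23, 10, 6 and 4, and 7 Wnt and 8 colonocyte genes rose but no heat shock gene. With the first side of the SW480 division alone they numbered 0, 0, 1 and 1 with no rise in any of the 3 lists, and with the second side 28, 12, 8 and 6, with 10 heat shock, 7 Wnt and 8 colonocyte genes rising. SW480 siPOLR1D2 1 and 2 lie on the first side and all 3 SW480 siPOLR1D3 libraries on the second, so in SW480 the siRNA and the division cannot be fully told apart.

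The 6 genes called for a difference all had separate groups in SW480 and overlapping groups in HT29, a pattern that selection on the same values favors. Of all 16203 genes tested, separate SW480 groups were found in 439 that were lower and 265 that were higher. In HT29 these numbered 589 and 417. GCOM1 had the lowest p-value (limma adjusted p = 0.0196). This gene (chr15:57591908-57714745, plus strand) joins in its transcripts the adjacent MYZAP and POLR2M, which overlap it on the same strand, so that its share of the reads is uncertain. It stood at 1222, 1245, 1088 and 1356 in HT29 SCR and at 1206, 1207, 1054 and 1001 in siPOLR1D, whereas SW480 went from 399.9 to 539.3 (median 502.8) down to 120.9 to 244.4 (median 160.1). The change was -0.14 ± 0.16 in HT29 and -1.56 ± 0.13 in SW480, a difference of -1.43 ± 0.21. In SW480 this is 2.95-fold lower.

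CAMK2N1, an inhibitor of the calcium and calmodulin dependent kinase CaMKII (chr1:20482391-20486220, minus strand), moved in opposite directions. Values were 80.42, 58.14, 55.63 and 92.64 in HT29 SCR and 63.26, 152.5, 134.1 and 135.3 in HT29 siPOLR1D, where siPOLR1D2 1 alone lay within the control range. In SW480 they ran from 61.8 to 141.4 (median 88.38) in SCR and from 22.72 to 31.17 (median 25.47) in siPOLR1D. The changes of 0.71 ± 0.30 and -1.79 ± 0.25 differed by -2.49 ± 0.39 (limma adjusted p = 0.0252). Both siRNAs gave the same direction within a line, with 0.48 for siPOLR1D2 and 0.93 for siPOLR1D3 in HT29 and -1.69 and -1.89 in SW480. Of 21 genes of calmodulin and CaMK signaling the median changes were 0.10 and 0.01.

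CTSH, the lysosomal protease cathepsin H (chr15:78921058-78949574, minus strand), was abundant in HT29 and low in SW480 before silencing. It had 3186, 3217, 3116 and 3877 in HT29 SCR and 3282, 3768, 3798 and 3917 in siPOLR1D, and in SW480 54.57 to 84.32 (median 62.89) against 138.7 to 281.7 (median 238.2). Its level rose 3.24-fold in SW480, with 1.70 ± 0.16 against 0.14 ± 0.20 in HT29, a difference of 1.55 ± 0.25 (limma adjusted p = 0.028). In SW480 the change was 1.36 with siPOLR1D2 and 2.04 with siPOLR1D3.

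SAR1B and LSM14A rose in SW480 by about the same factor. SAR1B, a GTPase that assembles COPII vesicles leaving the endoplasmic reticulum (chr5:134601144-134649271, minus strand, overlapped by SEC24A on the other strand), had 1630, 999.2, 1215 and 1146 in HT29 SCR and 1431, 1352, 1157 and 1235 in siPOLR1D. SW480 went from 645.6 to 824.8 (median 739.6) up to 1366 to 1799 (median 1635). The changes were 0.07 ± 0.14 and 1.12 ± 0.11, a difference of 1.05 ± 0.18 (limma adjusted p = 0.0303). LSM14A, a protein of P-bodies where mRNAs are stored and decayed (chr19:34172504-34229515, plus strand), was at 4929, 4840, 4941 and 5411 in HT29 SCR and at 5557, 6016, 5533 and 5118 in siPOLR1D. SW480 values were 2220 to 2930 (median 2635) and 4093 to 6303 (median 5380). Here the changes of 0.14 ± 0.12 and 1.03 ± 0.10 differed by 0.89 ± 0.16 (limma adjusted p = 0.0463). Before silencing both genes were lower in SW480 than in HT29, a comparison across separately scaled tables that was not tested.

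GAGE13 rests on few reads. This cancer/testis antigen gene (chrX:49331616-49338952, plus strand) belongs to a family of near-identical copies among which reads may be split. It was listed at 0 in all 6 SW480 SCR libraries and at 3.081 to 18.25 in SW480 siPOLR1D, and had 16.51, 19.81, 11.3 and 7.131 in HT29 SCR and 9.69, 0, 0 and 18.53 in siPOLR1D. The difference of 5.42 ± 0.97 (limma adjusted p = 0.0463) depends on the added 1 and is no measure of fold.

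These 6 calls lay close to the threshold. Leaving out HT29 siPOLR1D2 2, HT29 siPOLR1D3 1 or SW480 siPOLR1D3 2 left 0 genes with a difference at an adjusted p under 0.05 by limma, with 1204, 1137 and 1292 at an unadjusted p under 0.05. Without SW480 SCR 4 it was 1 gene. Fewer libraries did not always give fewer calls: 23 genes were called without HT29 SCR 3, 13 without SW480 SCR 2 and 10 without HT29 SCR 4. For GCOM1 and CTSH the differences themselves moved less, between -1.54 and -1.17 and between 1.28 and 1.83 over 41 settings, passing in 35 and 31. CAMK2N1 and SAR1B passed in 32 and 27 of 41 settings. The difference of LSM14A lay between 0.737 and 1.16 and passed in 18 of 40. That of GAGE13 lay between 2.6 and 10.2 and passed in 15 of 40.

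**Figure D2:**
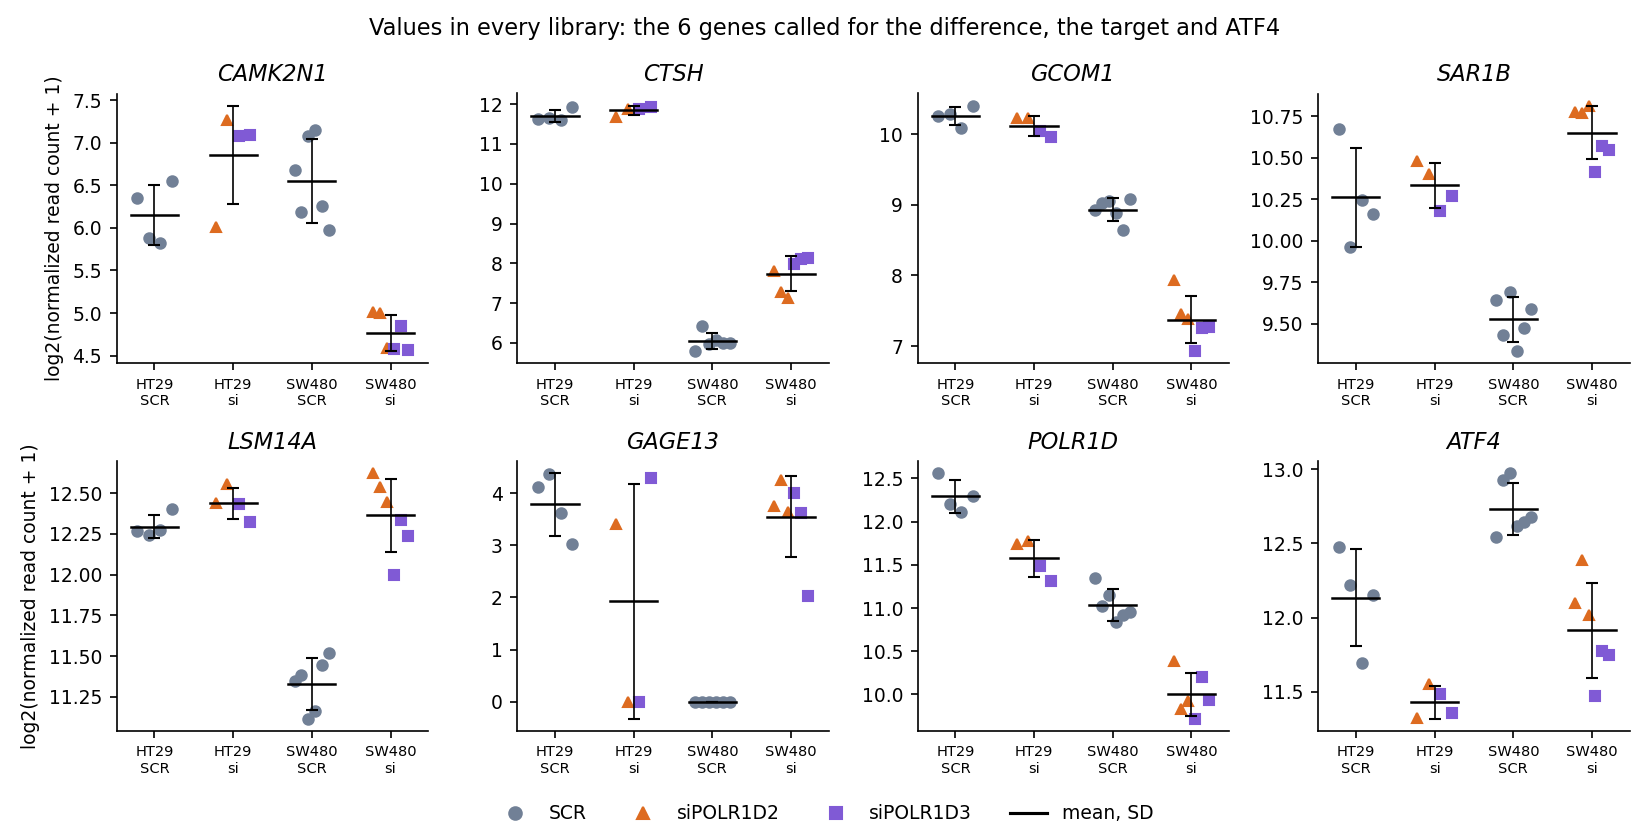
Normalised values as log2(value + 1) in every library for the 6 genes that differed between the lines and for POLR1D and ATF4. Circles are SCR, triangles siPOLR1D2 and squares siPOLR1D3, with the mean and SD of each group, and SW480 groups are separate in all 8 genes while HT29 groups are separate in POLR1D and ATF4 only.

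Genes next in order by the p of the difference mostly repeated the pattern of a change in SW480 with little in HT29. TLN1, talin, which ties integrins to actin, had 2695, 2650, 2243 and 3083 in HT29 SCR and 3363, 3517, 2767 and 2913 in siPOLR1D, against 2127 to 2581 (median 2380) and 3994 to 5858 (median 5292) in SW480. SW480 groups were separate and HT29 groups overlapped, and the changes of 0.24 and 1.12 had an adjusted p of 0.0581 for the difference by limma. MAPK3, the kinase ERK1, had -0.25 and 0.82 (adjusted p = 0.0673), and its SW480 values moved from 196.2 to 330.3 up to 403.7 to 491.6. KRT20, a keratin of differentiated colonocytes, was at 1412 to 3813 in HT29 SCR and 1649 to 1891 in siPOLR1D, and at 1.729 to 11.21 and 20.71 to 94.56 in SW480. This separation, with changes of -0.16 and 2.74, had an adjusted p of 0.0951.

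Among differences below 0, GPRC5A, an orphan receptor, had HT29 values of 1798, 1679, 1801 and 1313 in SCR and 1850, 1311, 1620 and 1494 in siPOLR1D. In SW480 it ran from 230.3 to 865.6 (median 584.8) in SCR and from 103.2 to 197.5 (median 141.2) in siPOLR1D, with separate groups. Its changes were -0.07 and -1.88 (difference, limma adjusted p = 0.0703). TXNRD2, the mitochondrial thioredoxin reductase, had 0.18 and -0.72, NIBAN2 0.07 and -0.62, and LRCH1 0.06 and -0.71, with adjusted p-values of 0.0703, 0.0703 and 0.0961. In the opposite arrangement RRAGC, a GTPase through which amino acids reach mTORC1, had 817, 700.9, 395.1 and 661.2 in HT29 SCR and 353.5, 350.4, 308.8 and 287.3 in siPOLR1D. HT29 groups were separate there, and the changes of -0.94 and 0.18 had an adjusted p of 0.0961.

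Signaling outputs were lower in SW480 and near 0 in HT29. Of 27 genes of MAPK output and feedback, 23 were lower in SW480 and 13 in HT29, with median changes of -0.53 and 0.06 and a median difference of -0.73. At an unadjusted p under 0.05 the difference was below 0 in 7 and above 0 in none, against 4.24% and 4.04% of all genes. EPHA2, a receptor kinase, was at 5436, 5027, 4272 and 5031 in HT29 SCR and 6383, 4321, 5181 and 5458 in siPOLR1D, and in SW480 at 5662 to 8108 (median 6782) and 3531 to 5270 (median 4460). The SW480 groups did not overlap, and the changes of 0.10 and -0.64 had an unadjusted p of 0.00229 for the difference. The cytokine LIF had 0.32 and -1.58 (0.00672) and the EGF receptor ligand HBEGF -0.17 and -1.94 (0.0113). In the average 5 of the 27 members fell and none rose, and 4 were among the genes lower in each line. Those that fell in the average included ETV5, a transcription factor (-0.53 and -0.70, limma adjusted p = 0.00249), and the phosphatase DUSP6 (-0.81 and -0.72, 0.0157).

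The MAPK difference was uneven between the silenced SW480 libraries, where siRNA and division overlap. Relative to the SW480 controls (-0.29 to 0.33), the list stood at -0.40, -0.13 and -0.57 in SW480 siPOLR1D2 and at -1.03, -0.97 and -1.03 in siPOLR1D3. In HT29 the controls were at 0.17, 0.14, -0.15 and -0.16 and the silenced libraries between -0.32 and 0.21. With siPOLR1D2 alone the median difference was -0.21 and no member had an unadjusted p under 0.05, and with siPOLR1D3 alone it was -1.0 with 12 members. On the first side of the SW480 split alone it was -0.249, and on the second -0.751.

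Targets of NF-kappaB separated the SW480 groups by library. Of 22 tested, 19 were lower in SW480 and 9 in HT29 (medians -0.63 and 0.09, median difference -0.65), and the difference was below 0 at an unadjusted p under 0.05 in 5. Relative to the controls, SW480 SCR lay between -0.26 and 0.24 and SW480 siPOLR1D between -0.74 and -0.48, without overlap, whereas HT29 SCR lay between -0.07 and 0.06 and HT29 siPOLR1D between -0.04 and 0.12. The median difference was -0.548 with siPOLR1D2 alone, -0.621 with siPOLR1D3 alone, -0.512 and -0.425 on the sides of the SW480 split, and -0.679 without HT29 SCR 1. TRAF1, an adaptor of TNF receptors, had changes of 1.08 and -1.09 (unadjusted p = 0.00143 for the difference) at values of 33.22 or less in all libraries. BIRC3, an inhibitor of apoptosis, was at 45.41, 94.27, 92.62 and 122.2 in HT29 SCR and 134.9, 79.85, 95.34 and 95.78 in siPOLR1D, against 72.54 to 202.4 (median 142.3) and 32.43 to 96.77 (median 56.14) in SW480. Groups overlapped in both lines, and the changes were 0.25 and -1.22. Against this direction NFKBIA, the inhibitor of NF-kappaB, rose in the average (0.63 and 0.34, limma adjusted p = 0.0185).

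Immediate early genes, YAP targets and annexins leaned the same way. Of 29 immediate early genes 27 were lower in SW480 and 17 in HT29 (medians -0.52 and -0.08), with EGR1, a growth factor induced transcription factor, at 0.62 and -1.18. Of 18 targets of YAP and TEAD 15 were lower in SW480 and 11 in HT29 (medians -0.77 and -0.22), and the receptor kinase AXL had 0.58 and -0.97. Of 21 annexins and S100 proteins, which bind calcium and membranes, 18 were lower in SW480 and 11 in HT29 (medians -0.36 and -0.06). S100A16 had 0.39 and -0.73 with an unadjusted p of 0.00033 for the difference, while ANXA1 fell in the average (-0.67 and -1.92, limma adjusted p = 0.00179). Differences below 0 at an unadjusted p under 0.05 numbered 4, 3 and 6 in these lists, and 1 immediate early gene, JUND, had a difference above 0. The median differences of -0.40, -0.53 and -0.48 were -0.547, -0.495 and -0.501 without HT29 SCR 1. With siPOLR1D2 alone they were -0.192, -0.726 and -0.335, with 0, 1 and 3 members below 0, and with siPOLR1D3 alone -0.498, -0.332 and -0.649, with 6, 3 and 8. On the first side of the SW480 division they were -0.426, -0.873 and -0.186, and on the second -0.216, -0.406 and -0.499.

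Lysosomal genes leaned the other way, toward differences above 0. Of 40 tested, 24 were higher in SW480 and 29 lower in HT29 (medians 0.19 and -0.16), and 8 had a difference above 0 and none below at an unadjusted p under 0.05. Over all 16203 genes tested, 8496 were higher in SW480 and 7873 lower in HT29. Relative to the controls the list was at -0.05, -0.06 and 0.01 in SW480 siPOLR1D2 and 0.35, 0.24 and 0.22 in siPOLR1D3, against -0.27 to 0.12 in SCR, so that only the libraries with siPOLR1D3 lay above the control range. The median difference was 0.237 with siPOLR1D2 alone and 0.407 with siPOLR1D3 alone, and 0.286 without HT29 SCR 1. With siPOLR1D2 alone the SW480 median was 0.0192, with 20 members higher and 20 lower. Besides CTSH, the protease CTSD had 12788, 10523, 8133 and 9198 in HT29 SCR and 10444, 7746, 9301 and 9682 in siPOLR1D, and 818 to 1848 (median 1072) against 1548 to 2614 (median 1841) in SW480. Both lines' groups overlapped, and the changes were -0.12 and 0.79 (unadjusted p = 0.00389).

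**Figure D3:**
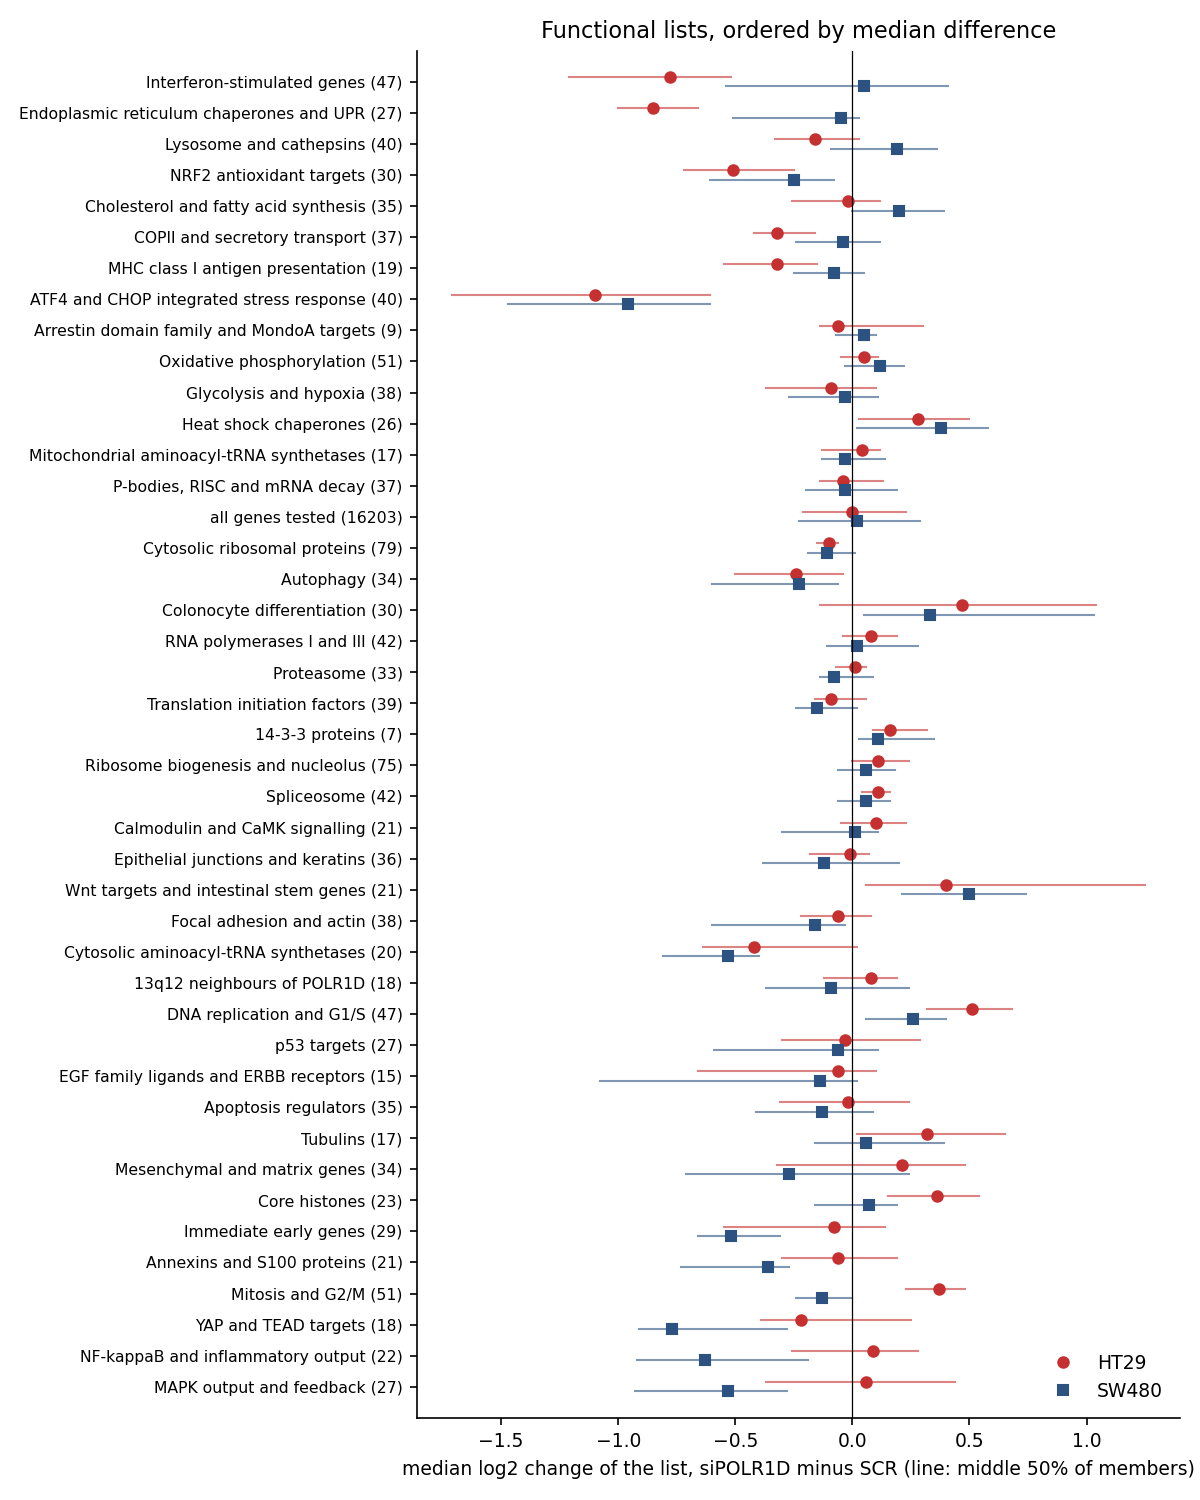
Median log2 change of each functional list after silencing in HT29 and SW480, with a line over the middle 50% of its members, ordered by the median difference between the lines. The integrated stress response lies near -1 in both lines (-1.10 and -0.96), MAPK and NF-kappaB outputs lie below 0 in SW480 only (-0.53 and -0.63), and interferon-stimulated genes (-0.78 and 0.05) and endoplasmic reticulum chaperones (-0.85 and -0.05) lie far lower in HT29.

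Chaperones of the endoplasmic reticulum were lower in HT29 and in part in SW480, and the contrast depended on 1 control. Of 27 tested, 27 were lower in HT29 and 18 in SW480 (medians -0.85 and -0.05, median difference 0.61), 6 had a difference above 0 at an unadjusted p under 0.05 and 7 fell in the average. The list stood at 1.51 in HT29 SCR 1, at -0.05, -0.77 and -0.69 in SCR 2 to 4 and between -0.91 and -0.79 in the silenced libraries. In SW480 it stood between -0.12 and 0.08 in SCR and between -0.44 and -0.19 in siPOLR1D, without overlap, and 5 members fell in the SW480 contrast. Without HT29 SCR 1 the HT29 median was -0.291 and the median difference 0.168, although 27 of 27 stayed lower, and without SCR 1 and 2 they were -0.0863 and 0.0859. With upper quartile scaling the SW480 median was 0.00842. Promoters of 3 members with unlike responses are printed, with capitals over the match to the endoplasmic reticulum stress element on either strand, CCAAT and CCACG with 9 bases between them.
CALR: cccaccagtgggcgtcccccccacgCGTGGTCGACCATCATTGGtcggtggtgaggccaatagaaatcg
HSPA5: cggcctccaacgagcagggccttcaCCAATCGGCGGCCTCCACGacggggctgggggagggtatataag
XBP1: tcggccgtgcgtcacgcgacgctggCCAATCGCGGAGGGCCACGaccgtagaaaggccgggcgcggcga

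The windows lie at chr19:12938359-12938427 (plus strand, match on the other strand) for CALR, chr9:125241366-125241434 (minus) for HSPA5 and chr22:28800578-28800646 (minus) for XBP1, from RefSeq on GRCh38.p14. The motif stood in 7 of 24 list promoters (29.2%) and in 16 of 11670 of all (0.137%). Calreticulin, CALR, was at 91290, 36882, 32387 and 31471 in HT29 SCR and 29123, 27335, 26416 and 24936 in siPOLR1D, which did not overlap, and at 12930 to 28682 (median 20380) and 17224 to 34005 (median 30777) in SW480, which did. Its changes of -0.68 and 0.49 had an unadjusted p of 0.00436 for the difference. HSPA5, the main chaperone of the compartment, had -1.08 and -0.18. XBP1, a transcription factor of the unfolded protein response, fell in the average (-0.89 and -0.88, limma adjusted p = 0.00205).

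Interferon-stimulated genes were lower in HT29 and split in SW480. Of 47 tested, 47 were lower in HT29, and 24 were higher and 23 lower in SW480 (medians -0.78 and 0.05, median difference 0.72). The HT29 controls were far apart, at -0.79, -1.70, 0.85 and 1.64 for SCR 1 to 4, and the silenced libraries were at -2.09, -0.53, -0.42 and -0.41, within or just below the control range. Unlike the chaperones, this list had a lower HT29 median without SCR 1 (-1.02) and without SCR 1 and 2 (-1.95, median difference 2.0, with 33 members above 0 at an unadjusted p under 0.05). With siPOLR1D2 alone the HT29 median was -1.15, and with siPOLR1D3 alone it was -0.418, with 8 of 47 higher. IFIT1, which binds foreign RNA, had 215.2, 138, 946.8 and 2061 in HT29 SCR and 57.82, 236.6, 265.3 and 245.5 in siPOLR1D, and 6.101 to 20.91 against 6.961 to 36.69 in SW480. Groups overlapped in both lines, and the changes of -1.50 and 0.96 had an unadjusted p of 0.0132 for the difference. STAT2, a transducer of the interferon signal, fell in the average with -0.72 and -0.62.

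A pair of interferon promoters is printed for this list, with capitals over the match to the core of the interferon-stimulated response element, a pair of GAAA with 2 bases between them, on either strand.
IFIT1: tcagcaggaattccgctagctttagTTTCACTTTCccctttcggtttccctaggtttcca
ISG15: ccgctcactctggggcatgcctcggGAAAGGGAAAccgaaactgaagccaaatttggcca

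The windows lie at chr10:89392482-89392541 (plus strand, match on the other strand) for IFIT1 and chr1:1013359-1013418 (plus strand) for ISG15, from RefSeq on GRCh38.p14. The motif stood in 4.03% of all promoters, and no share is given for the list because only 70.2% of its protein-coding members had a promoter sequence. ISG15, a ubiquitin-like protein, had changes of -0.85 and 0.31.

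Cell cycle genes were higher in silenced HT29 libraries, again set against a low SCR 1. Of 51 genes of mitosis, 50 were higher in HT29 and 38 lower in SW480 (medians 0.37 and -0.13, median difference -0.51), and 19 had a difference below 0 at an unadjusted p under 0.05. In HT29 the list was at -0.80, 0.00, 0.52 and 0.27 in SCR and at 0.30 to 0.40 in siPOLR1D, and in SW480 at -0.16 to 0.26 and -0.28 to 0.01. Without SCR 1 the HT29 median was 0.0969, with 8 differences below 0, and without SCR 1 and 2 it was -0.0244. The SW480 median was -0.325 on the first side of the division and 0.0488 on the second, where 30 of 51 were higher and 4 differences lay below 0. It was -0.204 with siPOLR1D2 alone (8 differences) and -0.0166 with siPOLR1D3 alone (6). AURKA, a mitotic kinase, had 2848, 3436, 4848 and 3699 in HT29 SCR and 4934, 5567, 5521 and 5725 in siPOLR1D, which were separate, and overlapping values in SW480 (4697 to 7617 and 3805 to 5309). Its changes of 0.58 and -0.13 had an unadjusted p of 0.00249. Of 47 genes of DNA replication and the G1/S step, 44 and 37 were higher (medians 0.51 and 0.26) and none was called in the average. With HT29 SCR 1 left out 27 were higher in HT29, and with SCR 1 and 2 left out 2 were.

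**Figure D4:**
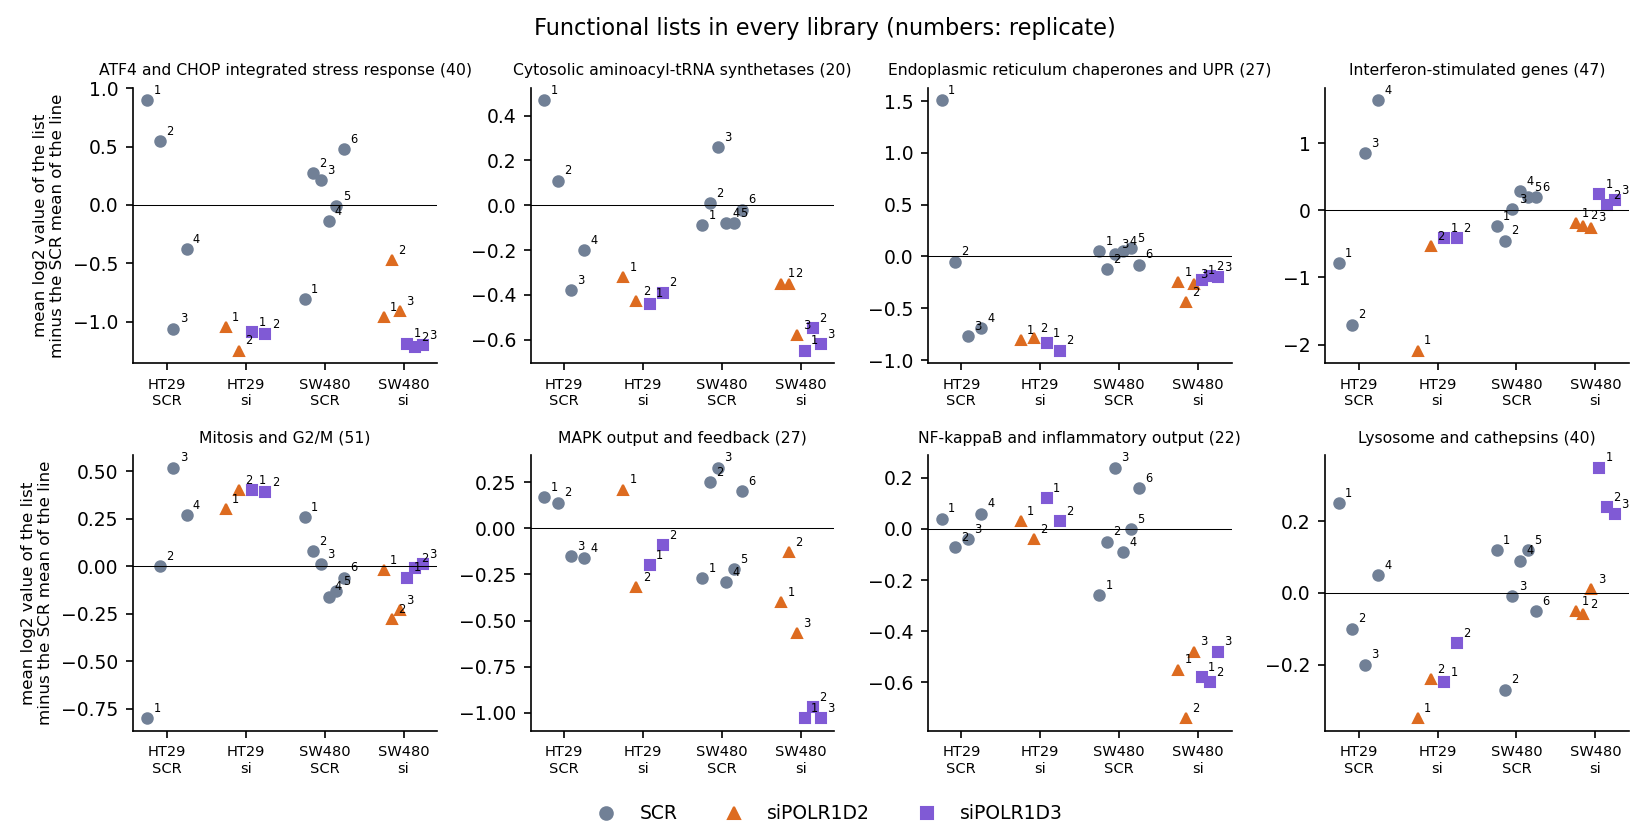
Mean log2 value of 8 functional lists in each library, relative to the SCR mean of the line. HT29 SCR 1 lies apart for endoplasmic reticulum chaperones (1.51) and mitosis (-0.80), HT29 SCR 3 lies among the silenced libraries for the integrated stress response (-1.06), and the 6 SW480 siPOLR1D libraries lie below all SW480 SCR libraries for NF-kappaB output (-0.74 to -0.48).

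Opposite changes were seen in 37 genes. The 20 genes higher in HT29 and lower in SW480 had median changes of 0.76 and -0.67, and the 17 in the reverse pattern -0.68 and 0.54, and 4 and 2 of them had group means under 10 in 1 of the lines. As follows from the rule, all had an unadjusted p under 0.05 for the difference, and 2, CAMK2N1 and GAGE13, passed the adjusted threshold. SOAT2, an enzyme that esterifies cholesterol, was at 3.46, 3.722, 13.9 and 5.557 in HT29 SCR and 8.791, 20.27, 16.84 and 27.52 in siPOLR1D, and at 48.99 to 141.2 (median 120.5) and 23.68 to 49.89 (median 33.33) in SW480. Each line's groups overlapped through 1 or more libraries, with changes of 1.42 and -1.43 (difference, limma adjusted p = 0.0673). KIAA1211 had 67.36, 58.68, 66.32 and 71.09 in HT29 SCR and 128.2, 176, 134.8 and 179.3 in siPOLR1D, which were separate, and 280.1 to 852.3 against 217.8 to 564.9 in SW480 (1.21 and -0.65, adjusted p = 0.0898). SMAD7, an inhibitor of TGF-beta signaling, was at 56.84, 36.29, 63.02 and 64.41 and at 99.61, 70.1, 77.04 and 101.8 in HT29, and at 89.56 to 134.1 and 40.93 to 105.7 in SW480, with changes of 0.67 and -0.68.

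In the reverse pattern LIPA, the lysosomal acid lipase that frees cholesterol from its esters, had 1967, 682.4, 794.3 and 1035 in HT29 SCR and 585.6, 701.4, 716.9 and 563.7 in siPOLR1D. In SW480 it went from 793.3 to 1010 (median 875.4) up to 1108 to 1429 (median 1297). SW480 groups were separate and HT29 groups overlapped through SCR 2, and the changes were -0.68 and 0.52 (difference, limma adjusted p = 0.144). FRMD3 had -1.40 and 1.06, GPR160 -0.91 and 0.58, the zinc finger gene ZNF653 -0.65 and 0.61, and HOOK2, which links organelles to microtubules, -0.55 and 0.35.

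**Figure D5:**
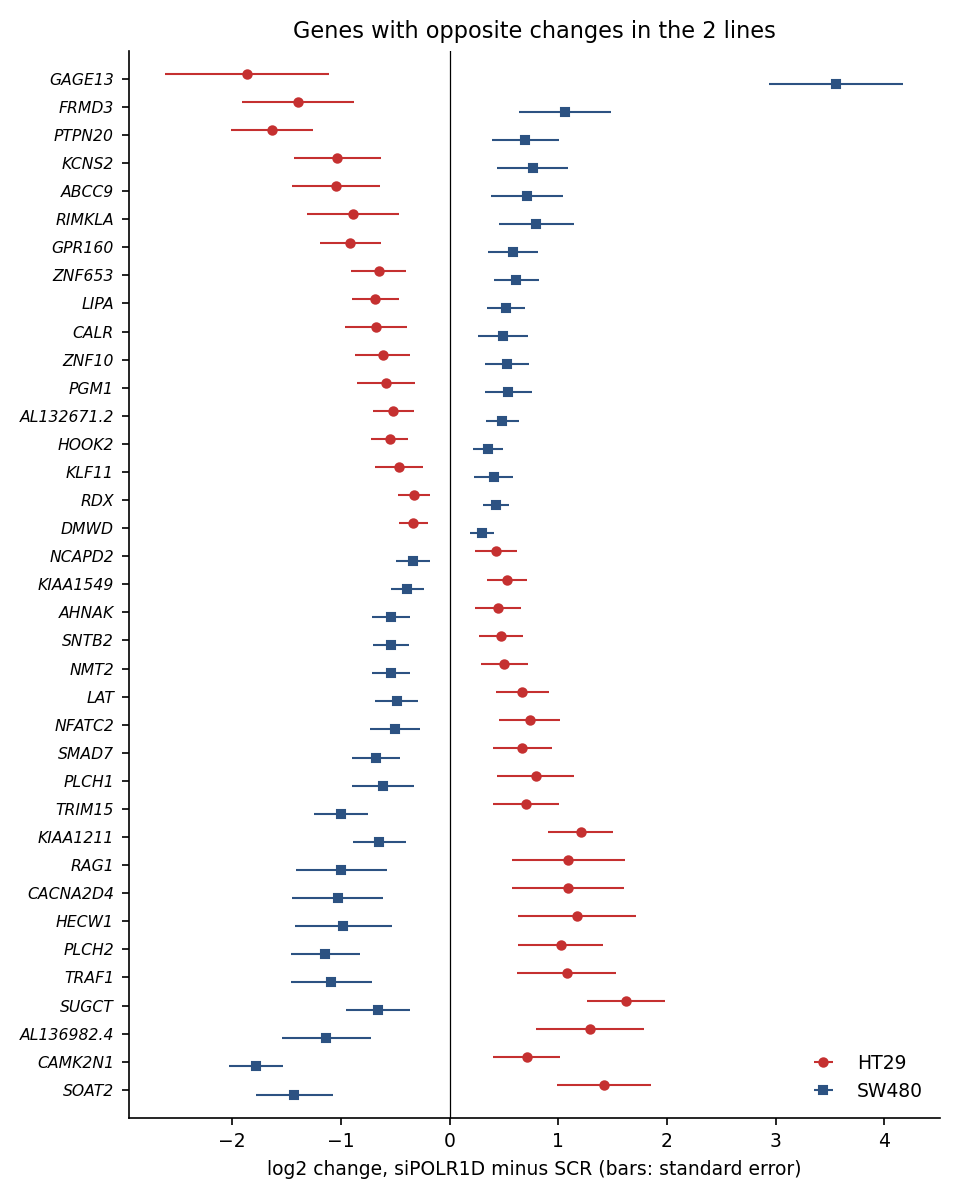
Log2 change after silencing with SE bars in HT29 and SW480 for the 37 genes whose changes had opposite signs at an unadjusted p under 0.05 in each line, 20 higher in HT29 and 17 higher in SW480. CAMK2N1 (0.71 and -1.79) and GAGE13 (-1.86 and 3.56) are the pair that passed the adjusted threshold for the difference.

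Housekeeping lists moved little in either line when both siRNAs were pooled. Cytosolic ribosomal proteins (79 genes) had median changes of -0.10 and -0.11, ribosome biogenesis (75) 0.11 and 0.06, oxidative phosphorylation (51) 0.05 and 0.12, proteasome subunits (33) 0.01 and -0.08, and the spliceosome (42) 0.11 and 0.06. Among 42 subunits and factors of RNA polymerases I and III, to which POLR1D belongs, the medians were 0.08 and 0.02, and 6 rose and 2 fell in the average. The SW480 median of these 42 was 0.205 with siPOLR1D2 alone (30 higher, 12 lower) and -0.12 with siPOLR1D3 alone (15 higher, 27 lower). That of ribosome biogenesis was 0.174 and -0.0666. POLR3E, a subunit of polymerase III, rose (0.21 and 0.68, limma adjusted p = 0.00227). Secretory transport, the list of SAR1B, had medians of -0.32 and -0.04, with 32 of 37 genes lower in HT29. Without HT29 SCR 1 that HT29 median was -0.0109. P-body and mRNA decay genes, the list of LSM14A, TNRC6A and DDX6, had -0.04 and -0.03. Among 7 proteins of the 14-3-3 family, YWHAH rose in the average (0.38 and 1.34, limma adjusted p = 0.00102), with an unadjusted p of 0.00139 for the difference.

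Genes listed in the study as changed in both lines were chosen on these libraries and are no independent evidence of direction. In the present fit all 45 tested had the same sign in both lines, 35 lower and 10 higher, with median changes of -1.06 and -1.01.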

How the data were processed

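The 20 libraries were made from total RNA of transfected cells with exome capture (TruSeq RNA Exome). Per the labels, the submitters ran FastQC 0.11.5, kallisto 0.44.0 and DESeq2 1.24.0 with build hg38. The deposited signal per gene is an estimated read count divided by size factors that the authors set within each line. Depth was estimated by taking the most frequent low value of a library as 1 read. The values were not whole reads, so no count model was run, and the tables of both lines were normalized separately. Interactions compare changes within tables.

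Here, rows sharing a gene name were summed, and 12 names had turned into dates (10 tested). A cell-means model of line by transfection was fitted to log2(value + 1) with limma 3.58.1 (R 4.3.3, variance trend, Benjamini-Hochberg adjustment over 16203 genes), giving 4 contrasts. Single values of POLR1D were compared by exact permutation (scipy 1.17.1). Scripts were tested on simulated data. Positions are from GENCODE release 29 and promoters from RefSeq, which covered 80.6% of the protein-coding genes tested.

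Members and the 47 gene lists (1334 genes tested) were chosen with earlier results of these data known. No p-value over a list is given. Named genes were those with a called difference and up to 12 next in each direction, the 10 with the smallest average p in each shared direction, 8 per opposite pattern, up to 4 members per list by each of the p for the difference and the average, and POLR1D, VEGFA and EREG. CHAC1, HERPUD1, AARS and HSPA5 were named for their promoters after their values were seen. Alternatives covered pseudocount, filter, scaling, variance model, replicate block, siRNA and omitted libraries.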

Additional observations from a re-analysis of the deposited data

Results flagged for a closer look

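Of 253 sets of 4 to 6 libraries checked over 64 named genes, 19 (7.51%) had 1 library far from the rest, where chance alone flags about 1 in 20. The number given is the gap to the nearest library divided by the range of the group.

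In HT29, CAMK2N1 was low in siPOLR1D2 1 (0.853), CTSH high in SCR 4 (0.854), MAPK3 low in siPOLR1D2 1 (0.858), GALNS high in siPOLR1D3 2 (0.903) and GPAT3 high in siPOLR1D2 1 (0.911). MYLK2 was low in SCR 2 (0.877), FYTTD1 high in SCR 1 (0.895), AC093668.1 high in SCR 3 (1) and FOXD4L6 high in SCR 2 (1).

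In SW480, GAGE13 was low in siPOLR1D3 3 (0.717), FOXD4L6 low in siPOLR1D3 1 (0.701), PTPRU low in SCR 3 (0.808) and GPRC5A low in SCR 2 (0.694). NIBAN2 was high in siPOLR1D3 1 (0.655), HSD11B2 low in SCR 3 (0.637), PRR12 low in siPOLR1D2 2 (0.723) and CARS high in siPOLR1D2 2 (0.639). ZNF653 was low in siPOLR1D2 2 (0.692) and GPR160 high in siPOLR1D2 3 (0.773).

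The log2 change differed between SW480 and HT29 by the interaction test for CAMK2N1 (-2.49), CTSH (1.55), GAGE13 (5.42), GCOM1 (-1.43), LSM14A (0.89) and SAR1B (1.05). The causes were not tested.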

How the results depend on the processing

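Counts of genes at an adjusted p under 0.05 were compared with 6 for the difference, 1076 for the average, 11 for HT29 and 1203 for SW480, and counts at an unadjusted p under 0.05 in each line with 583 moving the same way and 37 in opposite ways. With pseudocount 0.1 the difference gave 17 and HT29 26, with pseudocount 5 HT29 gave 3, and with a value of 10 in 4 libraries of each line HT29 gave 4. Without a variance trend the difference gave 3. Array weights gave 143, 2431, 104 and 3237 genes and 79 opposite. With siPOLR1D2 alone there were 0 differences (998 at an unadjusted p under 0.05), 153 average, 0 HT29 and 592 SW480 calls and 193 same way, and with siPOLR1D3 alone 2 differences and 7 HT29 calls. A term for the SW480 split gave 36 differences, 1616 average and 27 HT29 calls and 59 opposite, each line fitted alone gave 0 HT29 calls, and an adjusted p under 0.1 gave 25, 1857, 52 and 2028.

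The following were chosen after seeing the data. A stress score (the library's mean over the ATF4 and CHOP list, centred per line) as covariate gave 23, 17, 0 and 324 calls, 305 same way and 8 opposite, and the average change of VEGFA turned to 0.105. The score itself fell with silencing, from -0.499 to 1.46 in HT29 SCR to -0.686 to -0.488 in HT29 siPOLR1D. This fit therefore removes part of the silencing change and cannot separate the score from it. Without HT29 SCR 1 and 2 there were 23 differences (5 of the 6 among them), 370 average and 19 HT29 calls and 259 same way. The first side of the SW480 split gave 0 differences (1219 unadjusted), 68, 2 and 120 calls and 211 same way, and the second side 35 differences. The cause was not tested.

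Leaving out 1 library gave 0 to 23 differences, 600 to 1421 average, 4 to 152 HT29 and 708 to 1608 SW480 calls, 374 to 767 same way and 25 to 58 opposite. The 152 came without HT29 SCR 3. Equal replicate numbers did not pair the libraries on average (mean correlation of deviations -0.0186 in HT29 and -0.0713 in SW480, where it ran from -0.36 to 0.522). Some SW480 libraries did go together across transfections. SCR 2 and 3 had correlations of 0.454 to 0.538 with siPOLR1D2 1 and 2. Those of SCR 4 to 6 with the siPOLR1D3 libraries were 0.292 to 0.464. The main fit holds no term for this grouping. A replicate block gave 36 differences, with none of the 6 among them, 1186 average (609 of the 1076 among them), 618 HT29 and 402 SW480 calls and 168 opposite. In that fit HT29 SCR 3 and 4 and SW480 SCR 4 to 6 shared their block with no silenced library. Its changes therefore rest on HT29 SCR 1 and 2 and SW480 SCR 1 to 3 as controls.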
